A study of Mus musculus with 12 samples.

Results

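Fc gamma receptors and their signalling partners were followed in macrophages sorted from mouse pancreatic tumours. The set holds 8 genes, taken by name from the array annotation: the activating receptors Fcgr1, Fcgr3 and Fcgr4, the inhibitory receptor Fcgr2b, the adaptors Fcer1g and Tyrobp, the kinase Syk, and the neonatal Fc receptor Fcgrt. All 8 were found, on 9 probes, among 20282 genes and features tested. Transcripts were measured on 12 one-colour Agilent arrays, 6 of macrophages labelled YFP+ and 6 of macrophages labelled YFP−. All came from tumours implanted in female C57/B6 mice aged 8 to 10 weeks, and the genotype is given as not provided. The series' design text names wild-type, KPC and FLT3-CRE/LSL-YFP mice; in the last of these, YFP marks cells whose progenitors expressed a Cre recombinase driven by Flt3, a receptor of blood-forming progenitors, and that YFP has this meaning in these samples rests on the design text alone. The sample titles hold 6 tumour identifiers, called tumours 1 to 6 here, and each is shared by 1 YFP+ and 1 YFP− sample. The labels do not say in words that a shared identifier means 1 animal, or different ones separate animals, so p-values measure no more than how these samples spread, and that spread may be technical.

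Fc gamma receptors bind the constant part of IgG and let macrophages take up and kill what antibodies coat. Activating receptors signal through the gamma chain encoded by Fcer1g, whose paired tyrosines, once phosphorylated by Src-family kinases, recruit Syk; Tyrobp does the same for other myeloid receptors. Fcgr2b carries an inhibitory tyrosine motif in its own tail and recruits the lipid phosphatase SHIP1, so the ratio of activating receptors to Fcgr2b is commonly taken as a setting of macrophage responses to immune complexes. Fcgrt differs from the others: it pairs with beta 2 microglobulin and returns IgG from endosomes.

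Each value rests on a 60-base probe. Those of Fcgr3, Tyrobp and Fcgrt are shown because they lie in parts of the transcripts that encode a recognisable element of the protein, written 5′ to 3′ as on the array. For Fcgr3, capitals mark a run found on 1 of 39429 probes, in the stretch that encodes an immunoglobulin fold of the outer part. For Tyrobp, capitals mark TATNNNNNNCTN, the codon spacing of tyrosine and leucine in the activation motif that binds Syk; these letters occur on 4128 probes (10.5%) on either strand and in any frame, 2149 of them (5.45%) on the strand as printed. For Fcgrt, capitals mark TATNNNTGTNNNGTNNNNCAT, a spacing typical of immunoglobulin constant domains, found on 3 probes on either strand and on 1 as printed. The Fcgr3 run was likewise searched on both strands.
Fcgr3 probe: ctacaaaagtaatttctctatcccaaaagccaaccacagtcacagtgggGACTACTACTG
Tyrobp probe: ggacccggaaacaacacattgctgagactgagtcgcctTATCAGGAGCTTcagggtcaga
Fcgrt probe: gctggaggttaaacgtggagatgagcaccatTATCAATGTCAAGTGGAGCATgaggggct

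In the array annotation (mm9, minus strand) the Fcgr3 probe lies at chr1:172984129-172984188 and the Fcgrt probe at chr7:52350556-52350615; the Tyrobp and Fcgr4 probes have no position there, and RefSeq places these genes on chromosomes 7 and 1. The Fcgr2b probe is at chr1:172890988-172891047 and that of Fcer1g at chr1:173159794-173159853, both on the minus strand. Fcgr1 is probed at chr3:96086839-96086898 on the minus strand. Syk has a brighter probe at chr13:52744088-52744147 and another at chr13:52738924-52738983, both on the plus strand. Exons and untranslated regions were not assigned, since no annotation of that build was used here. Fcgr2b, Fcgr3 and Fcgr4 are close relatives, and cross-hybridisation between their transcripts was not tested; the longest run that a member's probe shared with a probe of another gene was 12 to 15 bases.

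Each of 3 slides carried 4 arrays, 2 of each group. The 75th percentile of an array's signal was 3261 to 3930 in YFP+ and 2121 to 3329 in YFP− samples, and each array's own was subtracted on the log2 scale, so a value of 1 below is a signal at 2 times that percentile. With limma, 356 of the 20282 genes passed an adjusted p of 0.05 (1.76%), 68 higher and 288 lower in YFP+ macrophages, and the median difference of all genes was −0.03. The groups did not overlap for 382 genes (1.88%). All 11 macrophage markers examined, among them Csf1r and Cd68, were tested and none was called.

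None of the 8 Fc receptor and adaptor genes was called (0 of 8, against 1.76% of all genes), and 0 of 8 had an unadjusted p under 0.05, beside 11.3% of all genes. The YFP+ and YFP− ranges overlapped for every member. The differences were negative for 6 members and positive for Fcgr1 and Syk, with a median of −0.14 on the log2 scale. All members but the second Syk probe were well above background on all 12 arrays. In bulk samples, fewer cells of a type and less RNA per cell cannot be told apart.

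**Figure D1:**
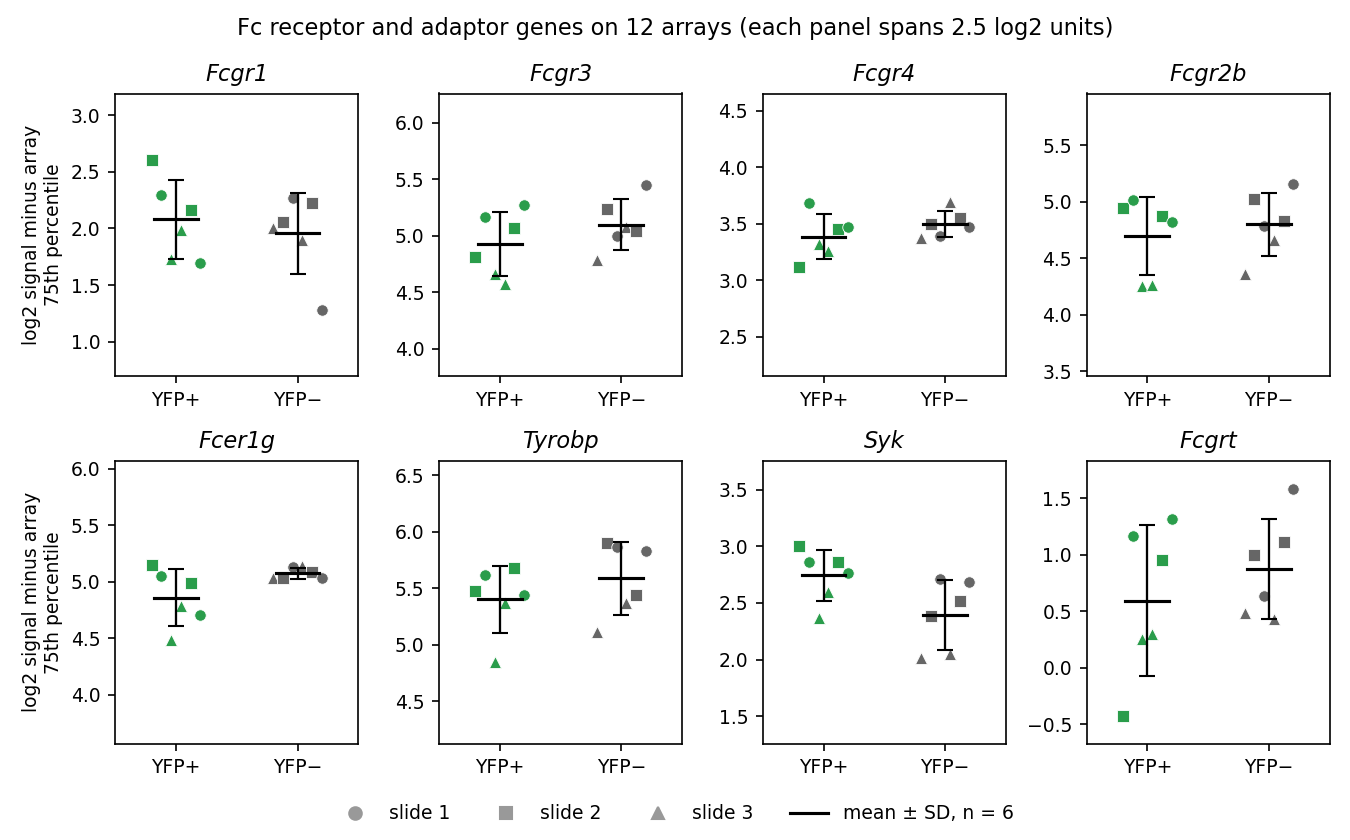
Log2 signal minus the array's 75th percentile (vertical axis) of the 8 genes on each array, YFP+ at left and YFP− at right in each panel; marker shape gives the slide, and bars are means ± SD over 6 arrays. The groups overlap in every panel, and the YFP− values of Fcer1g lie between 5.04 and 5.14.

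Fcgr1 encodes the high-affinity IgG receptor. Its lowest, median and highest values were 1.70, 2.08 and 2.60 in YFP+ macrophages, against 1.28, 2.03 and 2.27 in YFP− macrophages. YFP+ tumour 1 was highest and YFP− tumour 6 lowest, while the middle of the groups nearly coincided. The log2 difference was 0.12 (limma SE 0.23, 95% interval −0.37 to 0.61, adjusted p = 0.91), and YFP+ was higher in 4 of 6 tumour numbers. Without YFP− tumour 6 the difference was −0.01.

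Fcgr3, the low-affinity activating receptor that binds complexed IgG, ran from 4.57 through a median of 4.94 up to 5.27 in YFP+ macrophages, and had 4.79, 5.06 and 5.44 as its lowest, median and highest in YFP− macrophages. Both YFP+ arrays of slide 3 were the lowest of the 12. The difference was −0.17 (SE 0.19, −0.58 to 0.23, limma adjusted p = 0.82). Within slides 1, 2 and 3 it was 0.00039, −0.20 and −0.32.

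Fcgr4, a receptor of intermediate affinity for the IgG2 subclasses of the mouse, spread less than Fcgr1 and Fcgr3. In YFP+ macrophages it measured 3.11 at the lowest, 3.39 at the median and 3.69 at the highest, against 3.37, 3.48 and 3.69 in YFP− macrophages. Only 1 of 6 tumour numbers had a higher YFP+ value, and 3 YFP+ arrays lay below all YFP− arrays. The difference was −0.11 (SE 0.16, −0.45 to 0.23, limma adjusted p = 0.87). Within slides 1, 2 and 3 it was 0.15, −0.24 and −0.24.

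Fcgr2b, the inhibitory receptor, had a lowest value of 4.26, a median of 4.85 and a highest of 5.02 in YFP+ macrophages, against 4.36, 4.81 and 5.16 in YFP− macrophages. The groups overlapped, and the 4 arrays of slide 3 took 4.26 to 4.66, below the 4.78 to 5.16 of the other 8. The difference between groups was −0.11 (SE 0.21, −0.56 to 0.35, limma adjusted p = 0.92), and leaving out single arrays moved it between −0.19 (without YFP− tumour 1) and −0.019 (without YFP+ tumour 3). As a ratio of YFP+ over YFP− this is 0.93, with a 95% interval of 0.68 to 1.27. Within slides 1, 2 and 3 the log2 differences were −0.05, −0.02 and −0.25.

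The Fcgr2b probe is printed 10 times on each array, which gives its error within an array. The spots of an array had a coefficient of variation of 4.83% to 11.96%, and the median SD of their log2 signals was 0.10, below the 0.34 among YFP+ and 0.28 among YFP− arrays. Before scaling, the processed signal averaged 96205 ± 18701 in YFP+ and 73853 ± 13197 in YFP− macrophages (SD, n = 6 each). YFP+ signals were thus brighter on average before scaling, as whole YFP+ arrays were.

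**Figure D2:**
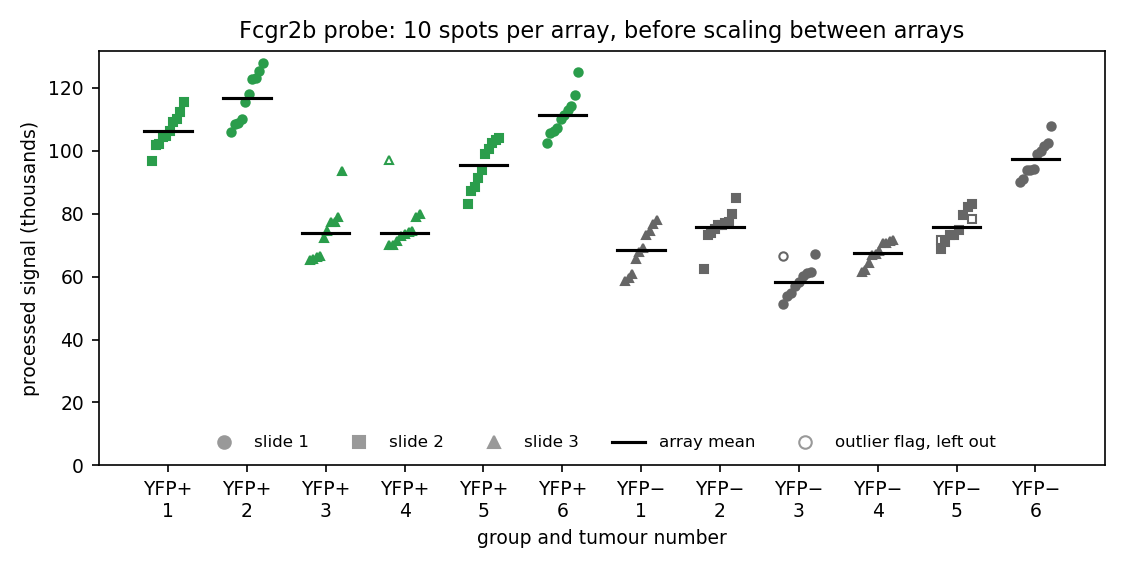
Processed signal on a linear scale (vertical axis) of the 10 Fcgr2b spots on each of the 6 YFP+ arrays (left) and 6 YFP− arrays (right); black lines are array means, open markers spots with an outlier flag. Spots of an array lie close together (coefficient of variation at most 11.96%), and arrays of 1 group lie farther apart.

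The balance of each activating receptor and Fcgr2b was taken within each array, so a scaling factor common to both probes cancels. With array brightness as a covariate the differences between groups still moved, to −0.33 for Fcgr3 and −0.43 for Fcgr4 (limma unadjusted p = 0.24 for both). Brightness largely went with group (75th percentile 3261 to 3930 in YFP+, 2121 to 3329 in YFP−), so this fit separates them poorly. These are differences between probes, so their size carries no meaning as a ratio of transcripts and only the comparison between groups is read. The Fcgr1 balance was −2.61 ± 0.31 in YFP+ and −2.84 ± 0.55 in YFP− macrophages (SD, n = 6 each). YFP+ was higher by 0.23, in 4 of 6 tumour numbers, with an exact two-sided permutation p of 0.45 (0.82 adjusted over the 3 balances). The lowest value was that of YFP− tumour 6, at −3.87, the array that was also lowest for Fcgr1.

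For Fcgr3 the balance was 0.23 ± 0.21 in YFP+ and 0.29 ± 0.10 in YFP− macrophages. The difference of −0.07 had an exact permutation p of 0.55 (0.82 adjusted). Without YFP+ tumour 1, the lowest array, it was 0.0067. The Fcgr4 balance was −1.31 ± 0.32 in YFP+ and −1.31 ± 0.29 in YFP− macrophages, a difference of −0.0050 (exact permutation p = 0.98). A p of 0.0022 is the smallest that 6 against 6 can give. Permuted within slides, the p was 0.37 for Fcgr1, 0.43 for Fcgr3 and 0.97 for Fcgr4. The differences within slides 1, 2 and 3 were 0.27, 0.26 and 0.16 for the Fcgr1 balance, 0.05, −0.18 and −0.07 for that of Fcgr3, and 0.19, −0.22 and 0.0081 for that of Fcgr4. The mean of the 3 activating receptors minus Fcgr2b was −1.23 ± 0.18 in YFP+ and −1.29 ± 0.28 in YFP− macrophages, given without a test.

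**Figure D3:**
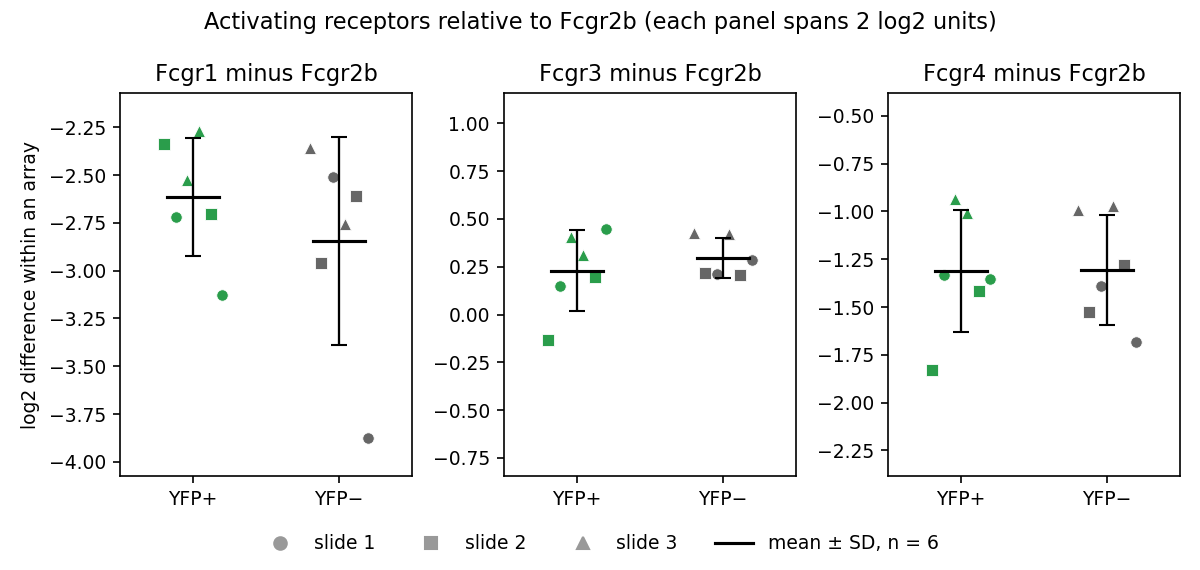
Log2 value of Fcgr1, Fcgr3 or Fcgr4 minus that of Fcgr2b on the same array (vertical axis), YFP+ at left and YFP− at right in each panel; marker shape gives the slide and bars are means ± SD over 6 arrays. The groups overlap in all 3 panels, and the Fcgr1 balance spreads widest, down to −3.87 in YFP− tumour 6.

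Fcer1g, the gamma chain that Fcgr1, Fcgr3 and Fcgr4 need to reach the surface and signal, was, after scaling, even across YFP− arrays and uneven across YFP+ arrays. Its lowest, median and highest values were 4.48, 4.89 and 5.15 in YFP+ macrophages, against 5.04, 5.06 and 5.14 in YFP− macrophages. The YFP− arrays thus lay within a narrow band (SD 0.049). In YFP+ (SD 0.25), 4 arrays fell below all of them and tumour 1 lay above. Before scaling the spreads were alike, with an SD of processed signal of 13177.5 in YFP+ and 12645.5 in YFP− samples. Whether the spreads differ was not tested. The difference in means was −0.22 (SE 0.16, −0.57 to 0.13, limma adjusted p = 0.70). Within slides 1, 2 and 3 it was −0.21, 0.0088 and −0.45.

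Tyrobp, or DAP12, is the adaptor of Trem2 and related receptors. It had 4.85, 5.45 and 5.68 as lowest, median and highest in YFP+ macrophages, and 5.12, 5.63 and 5.90 in YFP− macrophages. YFP+ tumour 3 stood below the other YFP+ arrays, which began at 5.37. The 4 arrays of slide 3, at 4.85 to 5.37, lay below the other 8, at 5.44 to 5.90. The difference was −0.18 (SE 0.21, −0.63 to 0.27, limma adjusted p = 0.83), with 3 of 6 tumour numbers higher in YFP+. Without YFP+ tumour 3 it was −0.070.

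Syk, the tyrosine kinase recruited to phosphorylated adaptors, had the largest difference among the members. The brighter probe had a lowest value of 2.37, a median of 2.81 and a highest of 3.0004 in YFP+ macrophages, against 2.01, 2.45 and 2.71 in YFP− macrophages. On 4 YFP+ arrays the value lay above every YFP− array, and 5 of 6 tumour numbers were higher in YFP+. The difference was 0.35 (SE 0.19, −0.07 to 0.77, limma adjusted p = 0.55), or a ratio of 1.27 with a 95% interval of 0.95 to 1.70. It was positive within each slide, at 0.12, 0.48 and 0.45, and with slide as a block its SE was 0.12 and its limma p 0.016 unadjusted and 0.17 adjusted, a fit in which 2.75% of all genes and 0 of 8 members were called. The second, dimmer probe, designed on a cDNA clone and above background on 11 of 12 arrays, differed by 0.92 (SE 0.58, limma adjusted p = 0.63). On the array not above background, YFP− tumour 2, it measured −5.86, against −3.80 to −2.25 on the other YFP− arrays. That low value enlarges the difference.

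Fcgrt had the widest spread. It measured −0.42, 0.62 and 1.32 at the lowest, median and highest in YFP+ macrophages, against 0.43, 0.82 and 1.58 in YFP− macrophages. YFP+ tumour 1 was the lowest array, and 1 of 6 tumour numbers was higher in YFP+. The difference was −0.28 (SE 0.32, −0.98 to 0.42, limma adjusted p = 0.84), and the slides gave 0.14, −0.79 and −0.18. Without YFP+ tumour 1 the difference was −0.075, without YFP+ tumour 6 it was −0.42 and without YFP− tumour 6 it was −0.14.

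The sign of these small differences depended on how arrays were scaled. With the median of each array in place of the 75th percentile, the median of all genes was 0.18 in place of −0.03, and Fcgr3, Fcgr4, Fcgr2b and Tyrobp turned positive, at 0.04, 0.10, 0.10 and 0.03. Quantile normalization turned Fcgr3, Fcgr2b, Fcer1g and Tyrobp positive, at 0.09, 0.13, 0.04 and 0.14. Without scaling, where the median of all genes was 0.45, all 8 were positive, from 0.20 for Fcgrt up to 0.83 for Syk, and Syk alone was called (adjusted p = 0.024), 1 of 8 beside 5.29% of all genes. Syk was positive in all 31 alternatives, between 0.12 and 0.83. Array brightness was higher in YFP+ samples. With it as a covariate, a fit that called 13 genes in all and 0 members, Fcgr3, Fcgr2b and Tyrobp were positive, at 0.0054, 0.33 and 0.45.

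**Figure D4:**
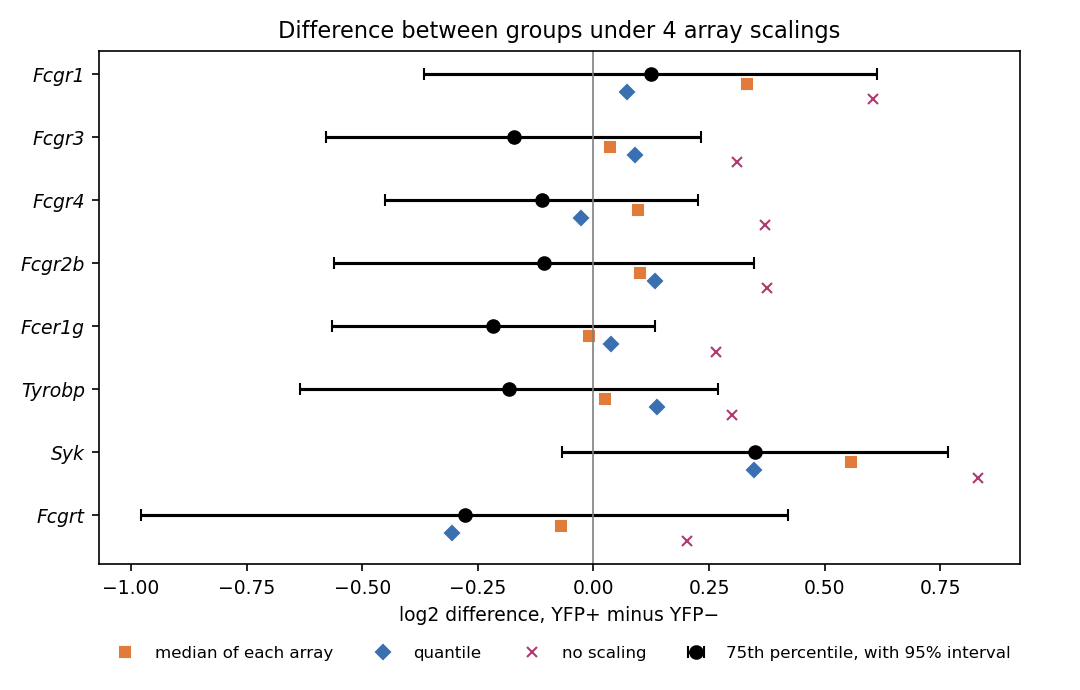
Log2 difference YFP+ minus YFP− (horizontal axis) of the 8 genes; black points are the 75th-percentile scaling with limma's 95% interval, and the other markers use the array median, quantile normalization or no scaling. Every black interval crosses 0, and without scaling all 8 differences are positive, up to 0.83 for Syk.

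Several members shared their low arrays. YFP+ tumour 3, on slide 3, was among the 3 lowest arrays for 8 of 8 members, YFP+ tumour 4 for 5 and YFP− tumour 1 for 4, all on slide 3. The remaining array of slide 3, YFP− tumour 4, was among the 3 lowest for 2 members and the 3 highest for 2. How often these arrays ranked so over all genes was not counted, so these ranks are not shown to be particular to the members. Slide 3 lay apart from the other arrays for 2 of 8 members, Fcgr2b and Tyrobp, beside 16.2% of all genes; this was noticed after the values were seen. YFP− tumour 6 was the highest array for 3 members and the lowest for Fcgr1. No member was called without any 1 array or without slide 3.

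Genes of the surrounding pathway were read from 6 lists holding 113 genes, of which 102 were tested. By limma 0 of the 102 were called, beside 1.76% of all genes, and 9 had an unadjusted p under 0.05, beside 11.3% of all genes. Of the 102 differences 66 were positive (all genes, 47.2%), with a median of 0.13 against −0.03. The genes share arrays and are not independent, so no test was made on the lists.

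Receptor-proximal kinases and activating signalling had a median of 0.24, with 21 of 28 genes positive and 0 called. Src, a founding kinase of the family that phosphorylates these receptors, averaged 1.44 ± 0.37 in YFP+ and 0.64 ± 0.47 in YFP− macrophages (SD, n = 6 each). Its difference was 0.80 (SE 0.26, limma adjusted p = 0.19). Lcp2, the adaptor SLP-76 downstream of Syk, differed by 0.73 (SE 0.24, adjusted p = 0.23). Pik3r1, the regulatory subunit of phosphoinositide 3-kinase, differed by 0.64 (SE 0.22, adjusted p = 0.24) and was higher in 6 of 6 tumour numbers. The list's median stayed above that of all genes within each slide, at 0.43, 0.30 and 0.10 against −0.05, 0.0040 and −0.08.

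Phagocyte oxidase and actin effectors, which carry out engulfment and the oxidative burst, had 10 of 14 genes positive, 0 called and a median of 0.23. Coro1a, an actin-binding protein of phagocytic cups, differed by 0.46 (SE 0.17, limma adjusted p = 0.28), Fmnl1, a formin, by 0.55 (SE 0.21, 0.30) and Ncf4, the oxidase subunit p40phox, by 0.39 (SE 0.19, 0.49). Inhibitory phosphatases and adaptors had 11 of 16 positive, 0 called and a median of 0.18. Among them Ptpn6, which encodes SHP-1, differed by 0.38 (SE 0.15, adjusted p = 0.34). Csk, the kinase that restrains Src-family kinases, differed by 0.53 (SE 0.27, 0.51), and Dok2, an adaptor that restrains Ras signalling, by 0.32 (SE 0.19, 0.58). The medians of the activating and the inhibitory list thus both lay above that of all genes, with no gene called in either; with array brightness as a covariate the inhibitory list had a median of −0.05, against 0.15 for all genes.

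Inhibitory ITIM receptors of myeloid cells had 14 of 17 genes tested, 9 of them positive, 0 called and a median of 0.08. Milr1 differed by −0.68 (SE 0.39, limma adjusted p = 0.57), Siglece by 0.30 (SE 0.28, 0.78) and Cd72, better known from B cells, by 0.26 (SE 0.26, 0.80). Receptors that pair with Tyrobp or Fcer1g had 22 of 24 tested, 12 positive, 0 called and a median of 0.05. Nfam1 differed by 0.37 (SE 0.17, adjusted p = 0.43), Clec5a by 1.39 (SE 0.72, 0.52) on a dim probe, and Trem1, an amplifier of inflammatory signals, by −0.50 (SE 0.27, 0.54).

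Other Fc receptors and Fc-binding proteins had 8 of 14 genes tested, 3 positive, 0 called and a median of −0.03. Fcer2a, the low-affinity IgE receptor of B cells, differed by 0.51 (SE 0.30, limma adjusted p = 0.60) and Fcrla, also of B cells, by 0.99 (SE 0.88, 0.77), above background on 4 YFP+ and 2 YFP− arrays. B2m, the partner of Fcgrt, differed by −0.16 (SE 0.24, 0.89). Not tested, because too few arrays were above background, were Fcer1a, Ms4a2, Fcamr, Fcmr, Fcrl1 and Fcrl6.

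**Figure D5:**
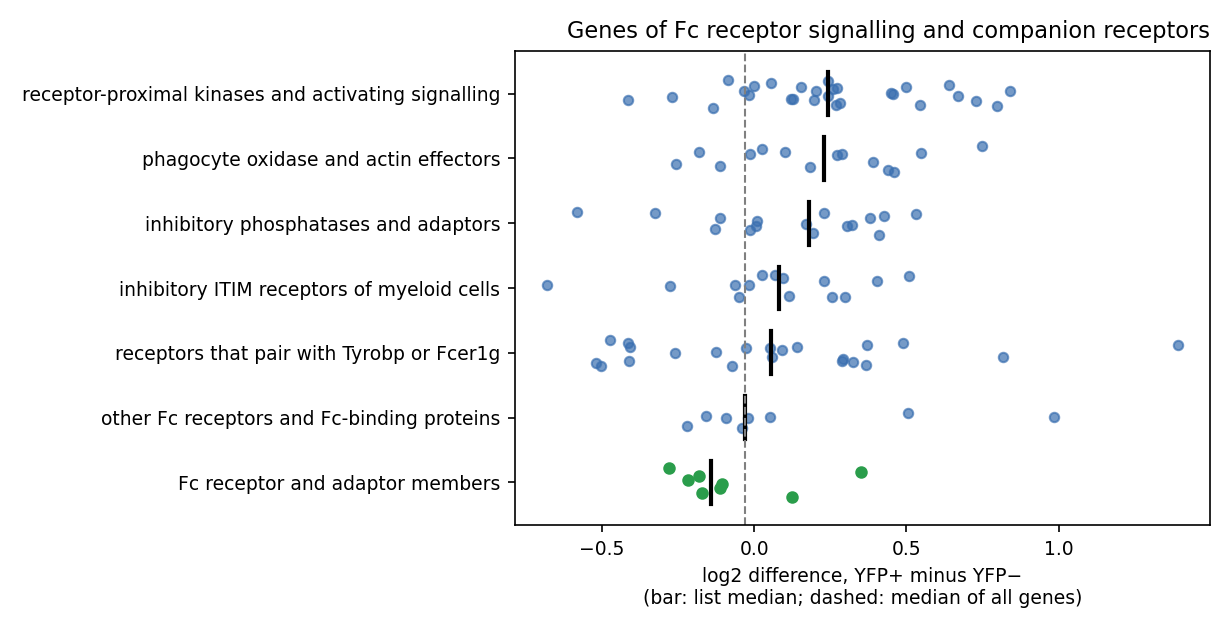
Log2 difference YFP+ minus YFP− (horizontal axis) of each tested gene of 6 pathway lists and, in the bottom row, of the 8 members; black bars are list medians and the dashed line the median of all genes, −0.03. Under this scaling the list medians run from 0.24 for receptor-proximal signalling down to −0.03 for other Fc receptors, the members' is −0.14, and no gene shown was called.

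Several cell types other than macrophages carry these genes, and the levels of their markers are set beside the results. Summed over the tested markers, in units of each array's 75th percentile, macrophage markers reached 194 to 322 in YFP+ and 217 to 362 in YFP− samples, with 0 of 11 called and all 11 differences negative (median −0.16), beside −0.14 for the members. With median centring 10 of the 11 macrophage markers were positive (median 0.05), and the members' median was 0.07. Fcgr2b is also the Fc receptor of B cells: B and plasma cell markers summed to 4.24 to 20.8 in YFP+ and 3.96 to 7.81 in YFP− samples, with 0 of 11 called. Of these 11 differences 8 were positive and 3 negative. The smallest p was that of Sdc1, a plasma cell marker lower in YFP+ (−1.13, limma unadjusted p = 0.0066). With slide as a block 1 of the 11 was called, Jchain, at 4.78 (limma adjusted p = 0.022), as it was with tumour number as a block. Jchain was above background on 6 YFP+ and 3 YFP− arrays. Markers of NK and T cells summed to 2.28 to 7.71 in YFP+ and 2.41 to 5.44 in YFP− samples (0 of 8 called). Mast cell, basophil and eosinophil markers, of cells that carry Fcer1g with the IgE receptor, summed to 1.71 to 4.90 in YFP+ and 7.01 to 22.3 in YFP− samples, and 3 of 7 were called lower. Neutrophil markers summed to 28.3 to 46.5 in YFP+ and 26.3 to 59.6 in YFP− samples, a sum carried by Csf3r (difference −0.30). The median over the 9 was −1.60, with 3 differences positive and 0 genes called. Under an unadjusted limma p of 0.05 were 6 genes, among them Ltf (−1.65), S100a9 (−1.67) and Mpo (−3.37). Cxcr2, also among these 6, went the other way (1.02). Dendritic cell markers summed to 29.9 to 66.9 in YFP+ and 28.0 to 56.8 in YFP− samples (0 of 8 called). That sum was carried mostly by Siglech (mean log2 value 4.32 in YFP+ and 4.73 in YFP−) and Irf8 (3.53 and 3.59). Flt3, Batf3 and Zbtb46 averaged below the 75th percentile in both groups, and Xcr1 and Clec9a were not tested.

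Fibroblast markers summed to 13.1 to 33.8 in YFP+ and 49.4 to 130 in YFP− samples, with 6 of 10 called lower. Epithelial markers summed to 4.999 to 11.4 in YFP+ and 15.4 to 41.8 in YFP− samples, with 4 of 9 called lower. Endothelial markers, of a cell type that expresses Fcgrt, summed to 0.964 to 2.22 in YFP+ and 1.02 to 4.58 in YFP− samples (0 of 7 called). The part of these cells in the members' values was not tested.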

How the data were processed

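Per the file headers, the intensity values deposited by the authors are red (Cy5) processed signals of Agilent Feature Extraction 11.5.1.1, background-subtracted and not scaled between arrays; per the labels' protocols, RNA of sorted cells was amplified as cDNA and labelled with Cy5. The deposited files' other columns used here are flags for outlier, saturated and above-background spots. The authors' deposited value table is on a log2 scale, not centred (column median 8.83, Spearman correlation with its own array at least 0.9999), and served as an alternative; 0 of its columns were unused.

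Control spots (1377 an array) and outlier spots were left out, spots of a probe averaged, and the 75th percentile of each array subtracted on the log2 scale. No spot was saturated. Of 39429 probes, 35 lacked a value on some array, and 25435 were well above background on at least 6 of 12 arrays; the brightest probe stood for a gene (4220 genes had several), giving 20282. RefSeq accessions matched 28758 probes, which changed 1672 names, and 10671 kept the array's name. Probe sequences and positions are the array annotation's (mm9); chromosomes of unplaced probes came from RefSeq.

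The comparison of YFP+ and YFP− used limma 3.58.1 under R 4.3.3 (lmFit, then eBayes, with group alone, Benjamini-Hochberg over all genes, threshold 0.05), and balances by exact permutation in Python 3.11.15 with scipy 1.17.1, numpy 2.4.6, pandas 2.3.3 and matplotlib 3.10.9. The fit was tested on simulated data. The members, lists and settings were chosen with earlier results of these data known. Named were all members, of each list the called genes or else the 3 with the smallest p, and for 6 members the 3 genes of highest correlation. Alternatives were tumour number or slide as a block, both together, each slide alone, no slide 3, normexp with offset 50, quantile normalization, median centring, the deposited table, other filters and probe rules, variance models, brightness as a covariate, and leaving out each array; no scaling was added later. Macrophages of normal pancreas named in the design text were not analysed here.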

Additional observations from a re-analysis of the deposited data

Results flagged for a closer look

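Among 58 groups of 6 arrays examined, 3 had an array that stood apart by Dixon's criterion at 95%, which flags about 1 in 20 groups by chance. Tyrobp measured 4.85 in YFP+ tumour 3, against 5.37 to 5.68 on the other YFP+ arrays. Src measured 0.71 in YFP+ tumour 1, against 1.42 to 1.68 on the others of that group. Fmnl1 measured 1.57 in YFP− tumour 4, against 2.07 to 2.34 on the other YFP− arrays. Without the array concerned, none of these genes was called.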

How the results depend on the processing

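Members called stayed at 0 and pathway genes called at 0 in all alternatives except no scaling between arrays, which was added after the data were seen and called 1 member and 17 pathway genes, beside 5.29% of all genes. Balances changed sign as follows: that of Fcgr1 to −0.061 under quantile normalization and −0.068 in the deposited table, that of Fcgr3 to 0.050 on slide 1, and that of Fcgr4 to 0.19 on slide 1 and 0.0081 on slide 3. With brightness as a covariate the Fcgr3 balance was −0.33 and that of Fcgr4 −0.43 (limma unadjusted p = 0.24 for both). That of Fcgr4 was −0.16 under quantile normalization and −0.17 in the deposited table (exact permutation p = 0.12 and 0.095). Leaving out single arrays gave 0.024 to 0.33 for the Fcgr1 balance, −0.11 to 0.0067 for that of Fcgr3, −0.080 to 0.10 for that of Fcgr4, −0.011 to 0.20 for Fcgr1, −0.19 to −0.019 for Fcgr2b, −0.24 to −0.10 for Fcgr3, −0.17 to −0.057 for Fcgr4, −0.28 to −0.14 for Fcer1g, −0.28 to −0.070 for Tyrobp and −0.42 to −0.075 for Fcgrt. On single slides the sign changed for Fcgr1 (−0.093, slide 3), Fcgr3 (0.00039, slide 1), Fcgr4 (0.15, slide 1), Fcer1g (0.0088, slide 2), Fcgrt (0.14, slide 1), Fcer2a (−0.17, slide 3) and Fcrla (−1.38, slide 1). Quantile normalization and the deposited table turned Fcgr3 (0.0909 and 0.0914), Fcgr2b (0.13 and 0.14), Fcer1g (0.0373 and 0.0371) and Tyrobp (0.14 in both). Both gave nearly the same fit over all genes, with 323 called in each, 69 higher and 254 lower, and medians of 0.0419 and 0.0426. They are therefore not separate checks. Median centring turned Fcgr3 (0.036), Fcgr4 (0.10), Fcgr2b (0.10), Tyrobp (0.026) and B2m (0.048). No scaling turned Fcgr3 (0.31), Fcgr4 (0.37), Fcgr2b (0.38), Fcer1g (0.26), Tyrobp (0.30), Fcgrt (0.20) and B2m (0.32). Array brightness as a covariate turned Fcgr3 (0.0054), Fcgr2b (0.33), Tyrobp (0.45), Milr1 (0.77), Trem1 (0.39), Fcer2a (−0.0078), Fcrla (−0.88) and B2m (0.58). The oxidase and actin list had a higher median than receptor-proximal signalling under quantile normalization (0.29 against 0.26) and normexp (0.23 against 0.22), and the ITIM receptors with brightness as a covariate (0.81 against 0.41). The cause of these changes was not tested.

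Over all genes, 356 calls became 557 with slide as a block, 561 with slide and a random replicate block, 543 with normexp, 1072 without scaling, 233 among genes above background on all arrays, 196 without slide 3, 13 with brightness as a covariate and 0 on each slide alone. Higher calls were 68 of 356, against 116 of 346 with median centring and 837 of 1072 without scaling. Same-numbered arrays had correlations of −0.30 to 0.38, and the YFP+ array's best partner was its own number in 3 of 6. These were tumours 4, 5 and 6 (0.38, 0.19 and 0.28), which had both arrays on 1 slide. In tumours 4, 5 and 6 tumour number and slide therefore cannot be told apart. Tumours 1, 2 and 3 had their arrays on different slides, with correlations of −0.30, 0.11 and −0.13, and none had its own number as best partner. With tumour number as a replicate block, 0 members and 295 genes were called, and the Fcgr1 balance stayed 0.23. The 6 arrays a group, array brightness that differs between groups, and slide effects limit what these differences can show.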

Other observations

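Between members, with the group means taken out, Pearson r ran from −0.49 (Fcgr1 and Fcgrt) to 0.85 (Fcgr2b and Fcgr3), with 0.81 for Tyrobp and Syk. The genes whose values ran most like a member's over the 12 arrays, with the group means taken out, included none of the 8 members themselves. For Tyrobp they were Irf8 (Pearson r 0.94, Spearman rho 0.89), a transcription factor of macrophages and dendritic cells, Cacna1i (0.94, 0.80) and Madd (0.92, 0.80). Fcgr1 ran with Pilra (0.95, 0.98), an inhibitory receptor of myeloid cells, Lrrc45 (0.94, 0.94) and Csrp1 (0.93, 0.88). Fcgr3 ran with Sgpl1 (0.97, 0.97), a sphingosine phosphate lyase, Tprgl (0.96, 0.93) and Apoc4 (0.95, 0.92). For Fcgr4 they were Wdfy3 (0.91, 0.91), Xpr1 (0.88, 0.94) and Gm14461 (0.88, 0.94), and for Fcer1g they were Cngb1 (0.93, 0.86), Esrp1 (0.90, 0.83) and Msn (0.89, 0.71). Fcgr2b ran with Olfr281 (0.97, 0.94), Gm9902 (0.97, 0.97) and Pramel51 (0.97, 0.98). These are the highest values for each of these 6 members among tested genes with a gene name, the arrays share slides and brightness, and no p is given.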
